A study of Saccharomyces cerevisiae with 6 samples.

Results

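The introns described here belong to 8 genes of budding yeast (Saccharomyces cerevisiae) that carry a small nucleolar RNA inside an intron: ASC1 (YMR116C), EFB1 (YAL003W), IMD4 (YML056C), TEF4 (YKL081W), NOG2 (YNR053C), RPL7A (YGL076C), RPL7B (YPL198W) and RPS22B (YLR367W). All introns of these genes were taken by gene name, with introns 1 and 2 of a gene kept apart, which gave 11 of the 309 introns measured and 8 of 298 genes. The assay was MPE-seq (multiplexed primer extension sequencing): reverse transcription starts from a pool of primers that each sit a short way past an intron, and a read then tells whether that intron was still present (unspliced) or gone (spliced). The 6 libraries came from 3 replicates, A to C, of a wild-type strain (genotype WT, strain EJS1) and 3 of a strain with the prp2-1 allele (strain EJS7). Both strains grew in YPD, a rich medium, at 25 °C to mid-log phase and were moved to 37 °C for 15 minutes before harvest, so the WT cells were heat-shifted too. The prp2-1 allele is temperature-sensitive. Whether the letters mark separate cultures is not stated, so p-values measure the spread between these libraries, which may be technical in part.

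Small nucleolar RNAs direct chemical marks onto ribosomal RNA. C/D box members guide 2′-O-methylation and H/ACA box members guide pseudouridylation. A small nucleolar RNA that lies in an intron is generally released after splicing, when the excised lariat is opened by the debranching enzyme and exonucleases trim its ends back to the bound proteins, so host mRNA and guide RNA come from the same transcript. Prp2 is the RNA helicase that remodels the spliceosome just before the first catalytic step. The host genes act in ribosomes and translation or feed them: ASC1, RPL7A, RPL7B and RPS22B encode proteins on the ribosome, EFB1 and TEF4 encode subunits of translation elongation factor 1B, NOG2 encodes a GTPase of large-subunit assembly, and IMD4 encodes an IMP dehydrogenase of GTP synthesis.

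The gene list was checked against the R64 annotation. Of 280 introns that could be placed on the genome, 8 held an annotated small nucleolar RNA, and each of the 8 belonged to a member gene. EFB1 held snR18, TEF4 held snR38, IMD4 held snR54, ASC1 held snR24, and intron 2 of RPL7A and of RPL7B held snR39 and snR59, all of the C/D class. NOG2 held snR191 and intron 2 of RPS22B held snR44, both of the H/ACA class. Intron 1 of RPL7A and intron 1 of RPL7B held none and serve as neighbours within the same transcript. The annotation used gives RPS22B 1 intron, inside the coding region, which was taken to be intron 2. Intron 1 of RPS22B was not placed, so its sequence was not analysed here. The 8 host introns ran from 273 bases in ASC1 to 532 in NOG2, with a median of 407.5 bases against 140 over all placed introns and 408 over the 91 placed introns of ribosomal protein genes.

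The intron of ASC1 is printed whole because it is the shortest host intron and shows how a guide RNA sits between the splicing signals. It lies at chrXIII:499879-500151 on the minus strand of build R64, between coding exons, and is written 5′ to 3′ with capitals for the 5′ splice site, snR24, the branch motif and the last bases of the intron.
ASC1 intron: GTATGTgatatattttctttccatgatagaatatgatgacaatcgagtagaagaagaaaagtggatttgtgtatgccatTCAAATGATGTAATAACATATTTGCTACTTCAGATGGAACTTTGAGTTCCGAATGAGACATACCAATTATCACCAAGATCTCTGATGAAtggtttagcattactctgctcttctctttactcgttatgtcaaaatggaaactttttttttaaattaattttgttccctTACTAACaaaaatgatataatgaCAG
The 89 bases of snR24 start 79 bases into the intron and end 85 bases before the branch adenosine. Across the 8 host introns the guide RNA started 79 to 181 bases after the 5′ splice site and ended 85 to 160 bases before the branch adenosine. It made up between 19% of the intron, for snR39, and 51.5%, for snR191.

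**Figure D1:**
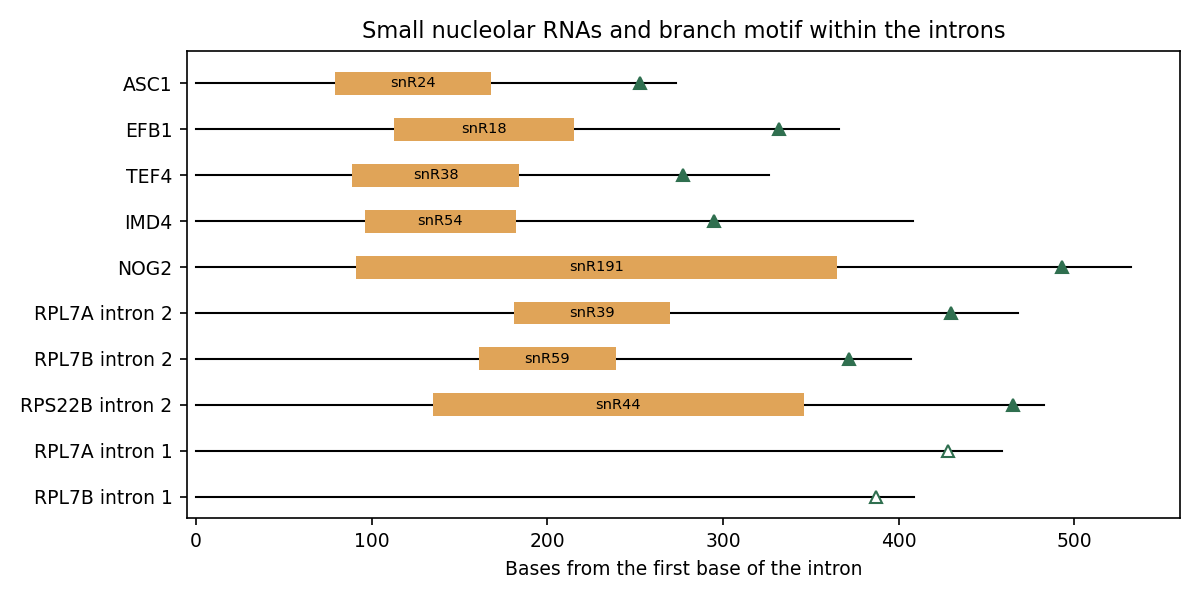
Introns of the member genes drawn to scale in bases from their first base; boxes are annotated small nucleolar RNAs and triangles mark the A of the branch motif, filled for TACTAAC and open for TGCTAAC. The guide RNA lies before the branch motif in all 8 host introns, and RPS22B intron 1 is not drawn because it was not placed.

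Branch regions are shown because the introns of 1 gene differ there. Each line runs from 3 bases before the branch motif to the end of the intron, with the motif and the last 3 bases in capitals. On build R64 the introns lie between coding exons at chrVII:365527-365985 (RPL7A intron 1, minus strand), chrVII:364965-365432 (RPL7A intron 2, minus), chrXVI:173163-173571 (RPL7B intron 1, plus), chrXVI:173666-174072 (RPL7B intron 2, plus), chrXII:856575-857057 (RPS22B intron 2, plus) and chrXIII:163309-163716 (IMD4, minus). The host introns of EFB1, TEF4 and NOG2 lie at chrI:142254-142619 (plus), chrXI:283096-283421 (plus) and chrXIV:721771-722302 (minus).
RPL7A intron 1: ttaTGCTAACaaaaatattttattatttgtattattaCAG
RPL7A intron 2: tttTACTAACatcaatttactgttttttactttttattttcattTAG
RPL7B intron 1: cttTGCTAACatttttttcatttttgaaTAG
RPL7B intron 2: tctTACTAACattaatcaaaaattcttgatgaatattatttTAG
RPS22B intron 2: caaTACTAACatttactccttattTAG
IMD4 intron: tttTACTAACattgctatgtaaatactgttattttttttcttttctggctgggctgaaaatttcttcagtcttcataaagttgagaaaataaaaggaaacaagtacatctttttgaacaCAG
All 8 host introns started with GTATGT, as did 73.2% of all placed introns, and held TACTAAC on the sense strand, as did 82.5%. Introns 1 of RPL7A and RPL7B also started with GTATGT but held no TACTAAC. In its place stood TGCTAAC. Of the 280 introns, 3 (1.07%) held no TACTAAC but had TGCTAAC in their last 100 bases, these and the intron of SRB2, while introns that hold both were not counted. TGCTAAC was looked for after the sequences had been seen. The branch adenosine stood 18 bases before the end of the intron in RPS22B intron 2 and 20 in ASC1, against 113 in IMD4 and a median of 34 over the 231 placed introns with TACTAAC. These matches describe letters and were not tested as sites.

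The guide RNAs of the duplicated genes RPL7A and RPL7B are related. They are shown with the C box (TGATGA) and the last D box (CTGA) in capitals, on chrVII:365163-365251 (minus strand) and chrXVI:173827-173904 (plus strand).
snR39, in RPL7A intron 2: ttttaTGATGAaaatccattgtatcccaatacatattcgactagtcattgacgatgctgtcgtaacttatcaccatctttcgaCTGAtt
snR59, in RPL7B intron 2: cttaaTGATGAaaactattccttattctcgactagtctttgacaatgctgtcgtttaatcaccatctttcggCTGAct
In a global alignment 67 of 90 columns were identical (74.4%). The introns around them were less alike, with 58.2% of columns identical between the introns 2 and 56.6% between the introns 1, while exon 2 between them was 86.2% identical.

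Library totals ranged from 1612685 to 2671271 reads, and the 11 introns held 5.89% to 7.86% of them. PRP2 has no measured intron, so the strain labels cannot be checked on the mutated gene. Spliced reads counted for intron 1 of HMRA1, the silent copy of the a1 mating-type gene, ranged from 4777 to 6361 per WT library and from 0 to 6 per prp2-1 library. Whether these reads came from the silent copy or from another copy of the a1 gene was not tested. Over the 14 introns of 12 a1 and meiotic marker genes, reads summed to 2728 to 3081 RPM in WT (reads per 1000000 reads of the library total after TMM scaling, a correction for composition) and 227 to 438 in prp2-1, and without HMRA1 they were 111 to 142 and 226 to 437. The groups thus differed in these marker reads as well, and their part in the values below was not tested. Unspliced and spliced reads are counted together in these sums, so a gain of unspliced reads alone would raise them. Since these are bulk cultures, fewer cells with a transcript and less of it per cell cannot be told apart. Why HMRA1 reads were nearly absent in prp2-1 was not tested. Whether the strains differ in more than the prp2-1 allele was not tested either.

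Unspliced RNA of the host genes rose against spliced RNA in prp2-1, but from very different starting points and to very different ends. Their ratio was higher in 10 of the 11 introns, where 93.4% of all 274 tested introns were higher (edgeR quasi-likelihood test, Benjamini-Hochberg adjusted p under 0.05 over all tested introns). All 8 host introns were among the 10. The exception was RPS22B intron 1. The unspliced percent (unspliced reads over unspliced plus spliced) did not overlap between groups in any of the 11 introns, and did not in 92% of all tested introns, so these shares are near the background. The median log2 change of the ratio was 3.77 over the 11 introns and 3.43 over the 8 host introns, against 4.64 over all tested introns and 3.88 over 98 other ribosomal protein introns. The median over the 11 introns is the value of NOG2 and was 3.09 without WT replicate C and 4.37 without prp2-1 replicate B, the extremes when each library was left out in turn. In WT the host introns spanned 0.0791% (ASC1) to 92.8% (NOG2) unspliced.

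**Figure D2:**
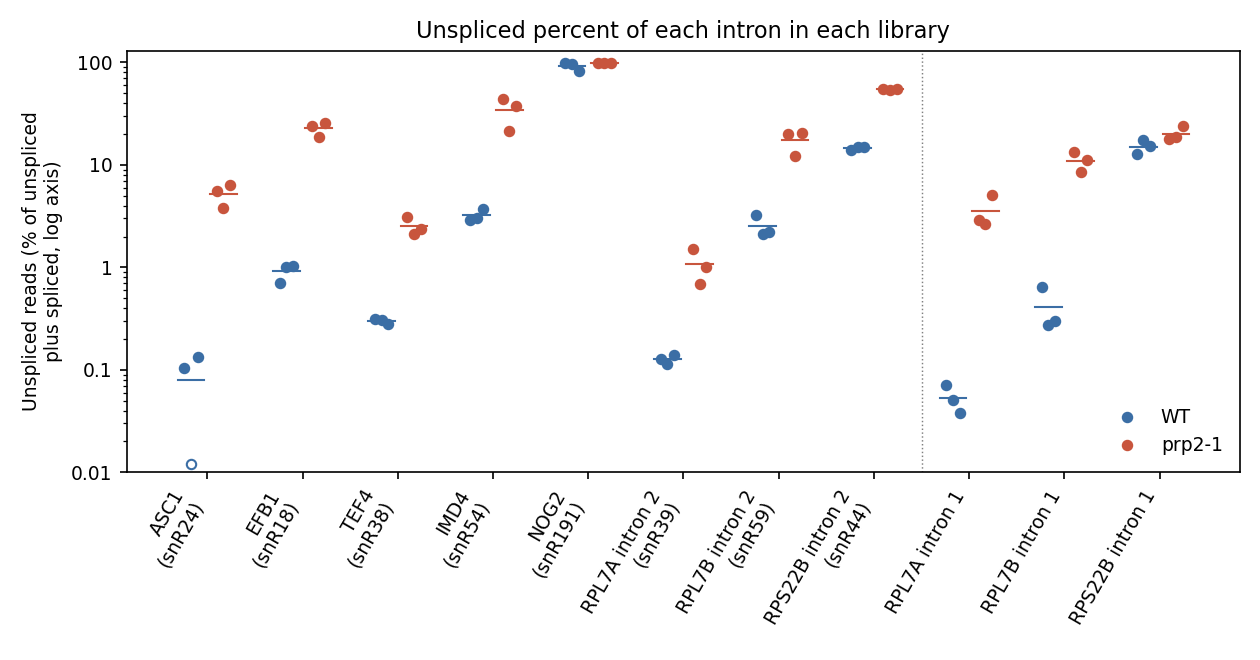
Unspliced percent (log axis) of each of the 11 introns in the 3 WT and 3 prp2-1 libraries; each point is a library, bars are means, and the open point at the bottom is ASC1 in WT replicate B, which had 0 unspliced reads. Host introns are left of the dotted line with their small nucleolar RNA in brackets, and prp2-1 points lie above WT points in every intron.

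Of the genes for proteins on the ribosome, ASC1 encodes the yeast counterpart of RACK1, a scaffold protein on the small subunit. Its unspliced reads in WT replicates A, B and C numbered 1, 0 and 2 beside 953, 1253 and 1509 spliced reads, and in prp2-1 they numbered 65, 63 and 64 beside 1112, 1581 and 940. The groups lay far apart, and the WT percent of 0.0791% ± 0.0698 (SD, n = 3 libraries here and below) rests on 3 reads in all. The 0 of 1253 reads in WT replicate B allows a share of up to 0.239% by a limit of 3 counts, and 0.294% by the exact 95% interval. In prp2-1 the percent was 5.52%, 3.83% and 6.37%, a mean of 5.24% ± 1.29. From summed reads the ratio was 65.4-fold higher, with an exact 95% interval of 22 to 320 that covers counting error only. The log2 change was 5.92 ± 0.57 (SE; edgeR adjusted p = 7.15e-10). It was 6.61 without WT replicate C and 7.11 in the authors' draw of 800000 reads. Spliced ASC1 reads overlapped between groups, at 577, 624 and 598 RPM in WT and 601, 612 and 417 in prp2-1 (log2 change -0.14, edgeR adjusted p = 0.497).

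RPL7A and RPL7B encode near-identical copies of protein L7 of the large subunit, and each has a host intron (intron 2) behind an intron with no guide RNA (intron 1). In RPL7A (YGL076C) the host intron was unspliced in 0.129%, 0.114% and 0.14% of reads in WT and 1.51%, 0.695% and 1.01% in prp2-1. Intron 1 of RPL7A started lower, at 0.0708%, 0.0513% and 0.0381%, and ended higher, at 2.91%, 2.66% and 5.05%. So the order of the introns of this gene by unspliced percent turned over between the strains in all 3 replicates of each. Each intron is read from its own primer, so the order of splicing within single transcripts was not measured. The log2 change of the ratio was 3.01 ± 0.38 (SE; edgeR adjusted p = 6.87e-08) for the host intron and 6.07 ± 0.42 (1.99e-12) for intron 1.

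In RPL7B (YPL198W) the host intron was unspliced in 3.27%, 2.1% and 2.22% of WT reads and 20%, 12.3% and 20.6% of prp2-1 reads. Intron 1 of RPL7B stood at 0.648%, 0.275% and 0.298% in WT, on 4, 2 and 3 unspliced reads, and at 13.3%, 8.59% and 11.2% in prp2-1. Here the host intron stayed the more unspliced of the pair in every library. The gap between the introns was wider in percent in prp2-1 but narrower on the log2 ratio scale, on which it is tested below. The log2 changes were 3.04 ± 0.40 (SE; edgeR adjusted p = 1.43e-07) for the host intron and 4.92 ± 0.47 (5.69e-10) for intron 1.

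RPS22B (YLR367W) encodes protein S22 of the small subunit and behaved the other way round. Its host intron was unspliced in 13.9%, 14.9% and 14.8% of WT reads and 54.5%, 54.3% and 55% of prp2-1 reads, a log2 change of the ratio of 2.82 ± 0.30 (SE; edgeR adjusted p = 4.04e-09). Intron 1 stood at 12.7%, 17.4% and 15.2% in WT and 17.7%, 18.9% and 24% in prp2-1. The lowest prp2-1 value of intron 1 was just above the highest WT value, and its log2 change of 0.51 ± 0.34 did not pass the test (edgeR adjusted p = 0.155). In signed order it ranked 9 of 274 from the lowest value up. The lower values included YDR535C, YJR079W, YOR318C and HAC1, whose changes were not determined. Their SE of 19417, 11351, 11232 and 3310 were derived from a test statistic near 0 and do not measure a spread. This rank is therefore approximate.

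The difference between introns of the same gene was tested directly, on log2 ratios of unspliced to spliced reads (0.5 added to each count), intron 2 minus intron 1. In RPL7A it was 0.85, 1.13 and 1.84 in WT and -0.96, -1.96 and -2.38 in prp2-1, a change of -3.04 ± 0.47 (SE; limma adjusted p = 0.00192 over the 7 genes with 2 tested introns). The mean difference in RPL7A was 1.27 ± 0.33 in WT (limma adjusted p = 0.0163, and 0.0738 without WT replicate C) and -1.77 ± 0.33 in prp2-1 (0.00882). In RPL7B it was 2.25, 2.69 and 2.74 in WT and 0.71, 0.57 and 1.03 in prp2-1, a change of -1.79 ± 0.23 (limma adjusted p = 0.00102). In RPS22B it was 0.15, -0.27 and -0.05 in WT and 2.47, 2.34 and 1.95 in prp2-1, a change of 2.31 ± 0.22 (limma adjusted p = 0.00039). The host intron thus moved less than its neighbour in both RPL7 genes and more than its neighbour in RPS22B. The exact two-sided permutation p was 0.1 for each, the smallest that 3 libraries against 3 can give. Such a change was called in 5 of the 7 genes (71.4%), with RPL7A, RPL7B and RPS22B counted among them. The others called were VMA9 (2.18) and YOS1 (1.37), whereas SUS1 (0.85) and EFM5 (0.64) did not pass. In WT alone the introns differed in 6 of the 7 genes (85.7%), and RPS22B was the exception, with a difference of -0.06 ± 0.16 (limma adjusted p = 0.738). The third intron with TGCTAAC and no TACTAAC, that of SRB2, went from 39.4% to 67.4% unspliced, a log2 change of 1.67. The introns 1 of RPL7A and RPL7B changed by 6.07 and 4.92, from WT means of 0.0534% and 0.407% unspliced. Over tested introns the median log2 change was 4.64 in the 205 with TACTAAC and 5.35 in the 42 without it. Among other ribosomal protein introns it was 4.18 in 82 with it and 3.46 in 4 without it. The part of the motif in these changes was not tested.

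**Figure D3:**
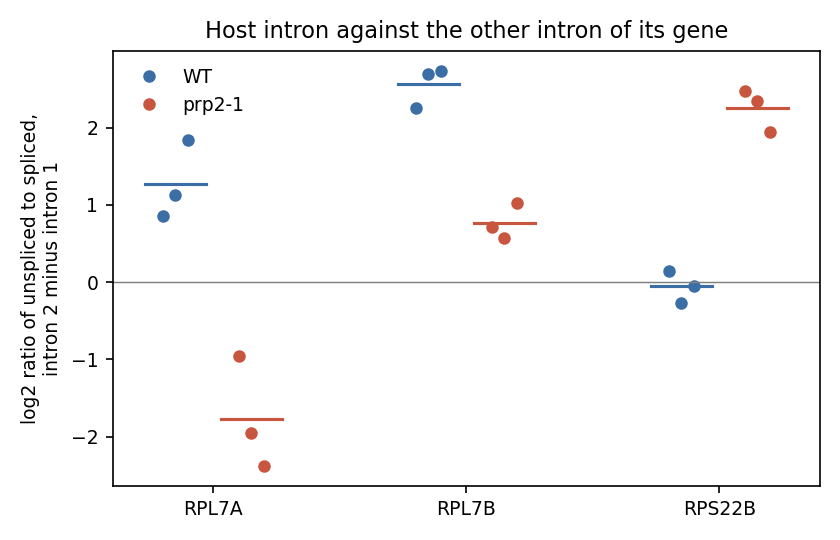
Log2 ratio of unspliced to spliced reads of intron 2 (the host intron) minus that of intron 1, in each library of RPL7A, RPL7B and RPS22B; points are libraries and bars are means. The prp2-1 points lie below the WT points in RPL7A and RPL7B and above them in RPS22B.

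The duplicates were compared intron by intron as RPL7A minus RPL7B. For the host introns the difference of log2 ratios was -4.74, -4.27 and -4.05 in WT and -4.03, -4.32 and -4.67 in prp2-1, so RPL7B was the more unspliced copy in every library. That gap did not pass the test for change (0.01 ± 0.33, limma adjusted p = 0.978 over 47 intron pairs of duplicated ribosomal protein genes). For intron 1 it was -3.34, -2.71 and -3.15 in WT and -2.36, -1.79 and -1.26 in prp2-1, a change of 1.26 ± 0.37 (limma adjusted p = 0.0204, and 0.0551, 0.0644 and 0.0844 without WT replicate A, prp2-1 replicate B and prp2-1 replicate C). A change was called in 27 of the 47 pairs (57.4%), and a difference in WT in 33 (70.2%), where both RPL7 introns were among them. Duplicates can share reads: 90 of 100 bases around the spliced junction of intron 2 are identical between RPL7A and RPL7B. Around the spliced junction of intron 1, 58 of 66 aligned bases are identical. Spliced reads of intron 1 averaged 16763 RPM in RPL7A and 376 in RPL7B in WT. The sources used here do not say how such reads were assigned, and the part of shared reads in the difference between the copies was not tested. The windows around the unspliced junctions had no such match between the copies.

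The translation factor genes differed from each other. EFB1 encodes the subunit of elongation factor 1B that exchanges GDP for GTP on elongation factor 1A. Its host intron was unspliced in 0.698%, 1.01% and 1.03% of WT reads and 23.7%, 18.8% and 25.5% of prp2-1 reads, a log2 change of 5.0 ± 0.36 (SE; edgeR adjusted p = 4.71e-12). TEF4 encodes the gamma subunit of the same factor. Its host intron was unspliced in 0.313%, 0.307% and 0.279% of WT reads and 3.11%, 2.11% and 2.39% of prp2-1 reads, a log2 change of 3.09 ± 0.35 (edgeR adjusted p = 1.12e-08). The log2 change of TEF4 was 3.84 in the first of the authors' random draws of 800000 reads per library. The level of EFB1 depends on the deposited table. Those draws held 508678 to 586694 counted reads per library, and their depth was taken from these totals because the headers for depth and draw number appear to be swapped. In them EFB1 had 56.7% of the spliced reads expected from the full table and 94.4% of the unspliced reads, against a median of 96.4% for spliced reads over 239 introns. Its unspliced percent from summed reads was 0.923% in WT and 22.4% in prp2-1 in the full table, and 1.45% to 1.58% and 32.2% to 32.9% over the 5 draws. The shortfall was alike in the 6 libraries, at 56.4% to 57.3%, and the log2 change from the first of these draws was 4.90. Its cause was not tested.

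IMD4 encodes an IMP dehydrogenase, an enzyme that catalyses the rate-limiting step of GTP synthesis. Its host intron was unspliced in 2.93%, 3.05% and 3.7% of WT reads and 44.4%, 21.6% and 37.4% of prp2-1 reads. Replicate B of prp2-1 lay well below the other prp2-1 libraries, and still above every WT library. The log2 change was 3.93 ± 0.40 (SE; edgeR adjusted p = 1.65e-09). The spliced junction of IMD4 shares 77 of 102 aligned bases with IMD3.

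NOG2 encodes a GTPase needed for assembly and export of the large subunit, and its intron stood apart as unspliced already in WT. Unspliced reads numbered 59, 116 and 115 in WT beside 1, 4 and 23 spliced reads, and 549, 758 and 872 in prp2-1 beside 1, 8 and 4. The unspliced percent was 98.3%, 96.7% and 83.3% in WT and 99.8%, 99% and 99.5% in prp2-1. WT replicate C held 23 of the 28 spliced WT reads. The log2 change of the ratio was 3.77 ± 0.73 (SE; edgeR adjusted p = 3.54e-05), and from summed reads the ratio was 16.1-fold higher, with an exact 95% counting interval of 7.99 to 34.4. The log2 change rested on few spliced reads and was 2.30 without WT replicate C (edgeR adjusted p = 0.026) and 4.52 without prp2-1 replicate B (4.84e-06).

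Levels of unspliced and spliced reads were then tested apart, each relative to all measured introns. Unspliced reads were higher in 10 of the 11 introns (90.9% of all tested introns) and lower in 1, RPS22B intron 1 (2.19% of all tested introns). Intron 1 of RPL7A rose from 12.1, 7.96 and 6.74 RPM in WT to 548, 541 and 965 in prp2-1 (log2 change 6.28 ± 0.37 SE), and ASC1 by 5.76 ± 0.63. The order of these largest values turned over without WT replicate C, at 6.07 for RPL7A intron 1 and 6.44 for ASC1, and in the draw of 800000 reads, at 6.42 and 6.87. The host intron of RPS22B rose least of those called, from 245, 251 and 244 RPM to 1175, 932 and 681 (log2 change 1.91 ± 0.27). Unspliced reads of RPS22B intron 1 fell from 84.2, 124 and 104 RPM to 60.6, 52.6 and 53.7, a log2 change of -0.91 ± 0.32 (edgeR adjusted p = 0.00528). Unspliced reads of the introns of RPS22B thus moved in opposite directions.

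Spliced reads were lower in 3 of the 11 introns, against 57.7% of all tested introns and 14 of 98 other ribosomal protein introns. EFB1 fell from 36613, 30826 and 31024 spliced RPM in WT to 12598, 12822 and 11264 in prp2-1 (log2 change -1.42 ± 0.09 SE; edgeR adjusted p = 4.35e-07), with no overlap. RPS22B intron 1 fell from 581, 586 and 582 to 281, 226 and 170 (-1.37 ± 0.19; edgeR adjusted p = 0.000114). RPS22B intron 2 fell from 1515, 1433 and 1412 to 981, 785 and 558 (-0.91 ± 0.18; edgeR adjusted p = 0.0013). Both introns of RPS22B were thus lower in spliced reads, and the windows around the junction of intron 2 share 90 of 100 bases with RPS22A, which has no intron.

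None of the 11 introns (0) was called with more spliced reads, in edgeR at an adjusted or at an unadjusted p under 0.05, where 6.2% of all tested introns were, and DESeq2 called 1, RPL7A intron 2. The host introns of TEF4 and ASC1 and both introns of RPL7A and RPL7B kept 81% to 113% of their WT mean of spliced RPM in prp2-1. In both introns of RPL7B the prp2-1 libraries lay below all WT libraries, though neither passed the test (edgeR adjusted p = 0.302 and 0.124). Intron 1 had 371, 360 and 397 RPM in WT against 329, 358 and 309. Intron 2 had 269, 302 and 349 against 227, 260 and 257. In RPL7A intron 1 the prp2-1 libraries lay above all WT libraries (edgeR adjusted p = 0.0968). It had 17101, 15519 and 17668 RPM in WT against 18324, 19813 and 18161. The share of all tested introns without overlap in spliced reads was not computed. Spliced IMD4 reads were 543, 585 and 587 RPM in WT and 250, 558 and 363 in prp2-1, a log2 change of -0.55 ± 0.25 (SE; edgeR adjusted p = 0.0864), which was -0.90 without prp2-1 replicate B (adjusted p = 0.00366). Spliced NOG2 reads were too few for a call (log2 change -1.14 ± 0.90).

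**Figure D4:**
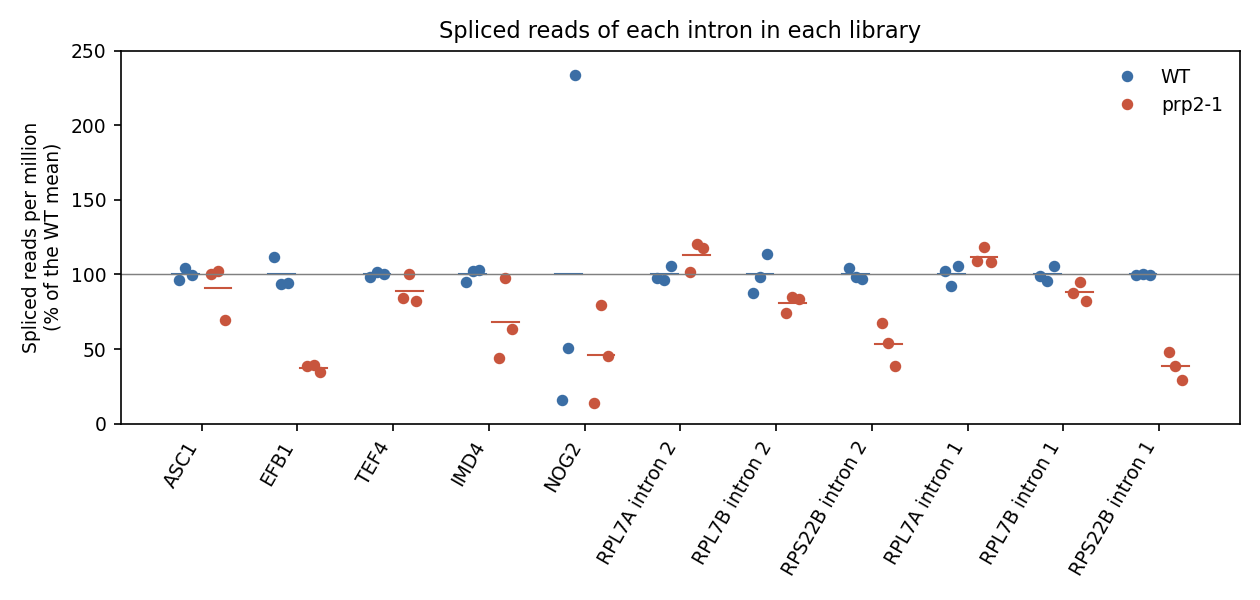
Spliced RPM of each of the 11 introns in each library, as a percent of the mean of the WT libraries (grey line); points are libraries and bars are group means. The prp2-1 points of EFB1 and of both introns of RPS22B and RPL7B lie below all WT points of the same intron. Those of RPL7A intron 1 lie above all WT points, and NOG2 rests on 28 WT and 13 prp2-1 reads.

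Total reads, unspliced plus spliced, were higher in NOG2 and RPL7A intron 1 (2 of 11; 19.7% of all tested introns) and lower in EFB1 and RPS22B intron 1 (2 of 11; 23.7%). NOG2 rose from 36.3, 59.7 and 54.7 RPM to 297, 296 and 389, a log2 change of 2.70 ± 0.24 (SE; edgeR adjusted p = 1.56e-05). Nearly all of this was unspliced RNA. EFB1 fell from 36870, 31140 and 31346 to 16506, 15782 and 15124 (-1.07 ± 0.08; edgeR adjusted p = 1.24e-05), so its gain of unspliced reads was smaller than its loss of spliced reads. RPS22B intron 1 fell from 665, 710 and 687 to 342, 278 and 224 (-1.29 ± 0.18; edgeR adjusted p = 0.00035), while the total of RPS22B intron 2 overlapped between groups at 1760, 1684 and 1656 against 2155, 1717 and 1239. The call for RPL7A intron 1 (0.21, edgeR adjusted p = 0.0417) was lost without any of WT replicates A, B and C or prp2-1 replicates B and C, with library totals, and when the 2 RPL7 genes were summed. It turned to -0.07 when 13 introns over 98% unspliced in WT set the scale.

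**Figure D5:**
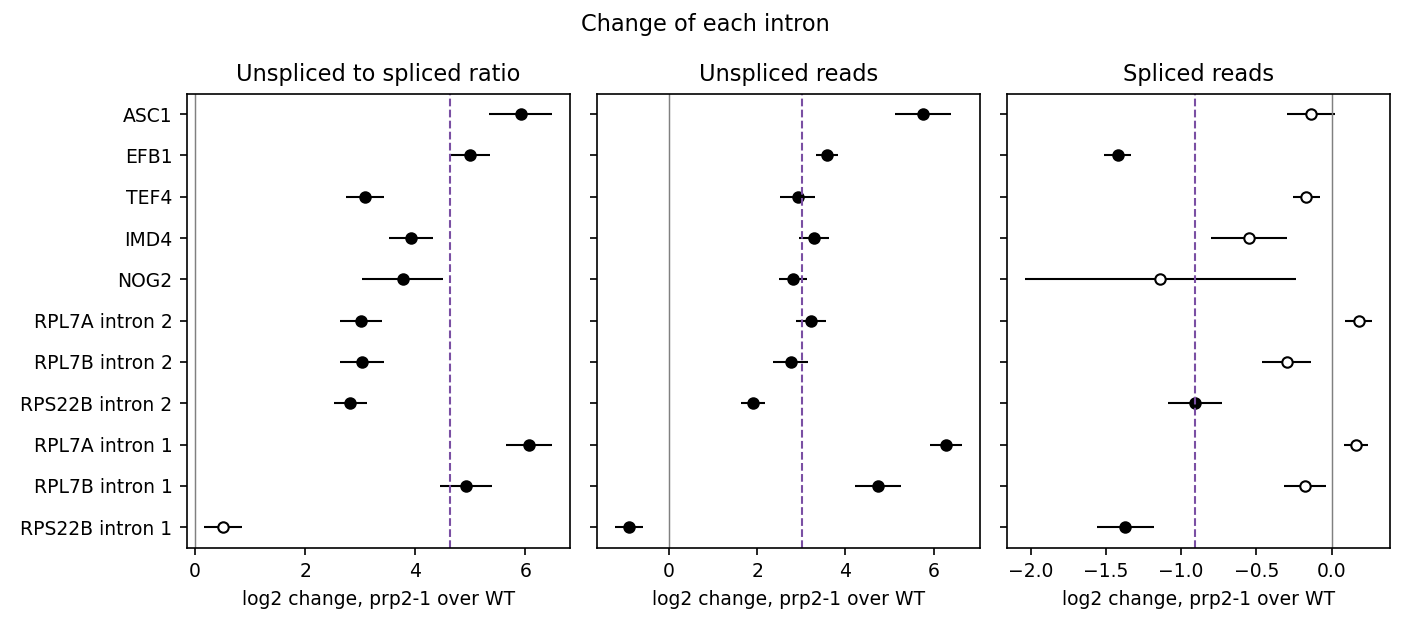
Log2 change, prp2-1 over WT, of the unspliced to spliced ratio, of unspliced reads and of spliced reads for each of the 11 introns, with SE bars; filled points passed the edgeR test and the dashed line is the median over all 274 tested introns. RPS22B intron 1 is the lowest in the ratio panel, and 10 introns lie above 0 among unspliced reads.

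The host genes were set beside other introns of related function, from lists named by gene. The 98 other ribosomal protein introns had a median log2 change of the ratio of 3.88, from -0.95 in RPS0A to 6.75 in RPS18B, and 95 were higher. Their median was 0.151% unspliced in WT and 2.25% in prp2-1, against 1.72% and 20.1% over the 8 host introns. The host medians lay below those of all tested introns, 3.74% and 46.3%. Over the 165 tested introns that were neither members nor ribosomal protein, the medians were 11.2% and 91.7%. In ribosome synthesis and non-coding RNA processing, all 9 tested introns were higher, with a median of 5.96. DBP2, an RNA helicase gene, changed least in this list (2.09), from 17.1% to 46%, and TAD3 intron 1, of a tRNA deaminase subunit, had the median. The introns of SNR17A and SNR17B, which encode the U3 small nucleolar RNA and so lie inside its precursor, went from 7.38% to 77.1% and from 0.286% to 23.6%. For POP8, a subunit of RNase P, 163 unspliced reads over the prp2-1 libraries stood against 0 over the WT libraries. The only other translation gene listed was EFM5, an elongation factor methyltransferase, with intron 2 higher (4.35) and intron 1 not called (1.94, edgeR adjusted p = 0.261). Spliced reads fell in 6 of the 9 introns for ribosome synthesis and non-coding RNA processing, a share near the 57.7% of all tested introns.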

How the data were processed

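The authors deposited raw counts of spliced and unspliced reads per intron and library, with no normalization. Per the submitters' processing notes, fastp 0.19.5, HISAT2 2.2.1 and SAMtools were used with build R64. The sources used here do not give how reads were assigned or whether duplicates were collapsed, so intervals cover counting error only. The reference annotation used here is of the same build.

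Introns with a mean of at least 10 reads (274 of 309, all 11 members) were tested. edgeR 4.0.16 (R 4.3.3) fitted the 2 counts per library, with library, read type and read type by genotype as terms. Levels were fitted with TMM factors of total reads. The SE given for edgeR were derived from the test, as the absolute log2 change over the square root of its F statistic. limma 3.58.1 tested differences between introns of a gene and between duplicates. The adjusted p threshold was 0.05. DESeq2 1.42.0, other scalings, filters, pseudocounts, a replicate block, leaving out each library, the authors' draws and summed duplicates were tried. Scripts were tested on simulated counts. Sequences and small nucleolar RNA positions come from RefSeq, and look-alikes from BLAST 2.17.0 on windows of 100 bases. Members and lists were chosen with earlier results of these data known. All members were named, and others by list.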

Additional observations from a re-analysis of the deposited data

How the results depend on the processing

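The ratio was called higher in 10 of the 11 introns under each alternative that kept RPL7A and RPL7B apart, except in the draw of 200000 reads, where it was 9 and NOG2 lost its call (4.54, adjusted p = 0.0792). With RPL7A and RPL7B summed, 8 of 9 introns were called. In the draw of 200000 reads the log2 change was 2.13 in RPL7A intron 2, 4.09 in RPL7B intron 2 and 4.04 in TEF4, and ASC1 with a pseudocount of 1 in limma was 5.20. The replicate block, fitted by letter, left 10 introns with a higher ratio. It gave 4 with lower spliced reads, as IMD4 was added (-0.62), and 3 with higher total reads, as RPL7A intron 2 was added (0.19). Same-letter libraries correlated at 0.092, 0.205 and 0.272 in their deviations of the ratio, and each library correlated best with its own letter. In deviations of total reads the same-letter values were 0.263, -0.087 and 0.007, and WT replicate B with prp2-1 replicate C gave 0.254. Whether the letters mark pairs was not tested, and these values do not settle it.

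The number of introns with higher spliced reads was 1 with DESeq2 and 0 to 1 leaving out a library. The number with lower spliced reads was 3 to 5 leaving out a library, highest without prp2-1 replicate B. The number with higher total reads was 1 with library totals, with the 13 mostly unspliced introns as scale and with RPL7A and RPL7B summed, and 1 to 3 leaving out a library. The 13 introns shifted the median over all introns by -0.34 for unspliced, -0.24 for spliced and -0.30 for total reads.

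Leaving out a library, the change of RPL7A minus RPL7B was 0.99 to 1.54 for intron 1 and -0.18 to 0.17 for intron 2. The WT difference between the introns of RPS22B was -0.16 to 0.05 leaving out a library, and that of RPL7A was not called without WT replicate C (0.99, adjusted p = 0.0738).

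Sign changes among single introns were in values that were not called, except RPL7A intron 1 in total reads. For spliced reads they were RPL7A introns 1 and 2 (-0.12 and -0.12 with the 13 introns), NOG2 (-1.79 to 0.47 leaving out a library, highest without WT replicate C) and ASC1 (-0.24 to 0.02, highest without prp2-1 replicate C). For total reads with DESeq2 size factors and with DESeq2, IMD4 and RPL7B intron 1 were 0.01 and 0.01. With the 13 introns, RPL7A introns 1 and 2 and RPS22B intron 2 were -0.07, -0.10 and -0.23. RPS22B intron 2 was -0.03 with library totals and -0.03 with the block, and RPL7B introns 1 and 2 were 0.05 and 0.04 in the draw of 800000 reads. Leaving out a library, total reads ranged from -0.20 to 0.19 in RPS22B intron 2, from -0.20 to 0.13 in IMD4, from -0.15 to 0.08 in ASC1, and from -0.07 to 0.03 and -0.15 to 0.02 in RPL7B introns 1 and 2. The cause was not tested. The draws of 800000 reads and the summed duplicates were chosen after seeing the data. WT counts of 3 reads in ASC1 and 9 in RPL7B intron 1, and 13 spliced prp2-1 reads in NOG2, limit those values.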
